A study of Mus musculus with 101 samples.

Results

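The Gnas-Nespas cluster on mouse chromosome 2 was measured at 2 target regions, taken by position as the target rows in a window of 0.2 Mb around the cluster in the mm10 assembly. The deposited tables held 868 target regions and 7917 CpGs, and 2 of the regions and 81 of the CpGs lay in this window. The first, called the Nespas region here, carries the authors' category name imprinting and spans chr2:174295026-174296544, a length of 1519 bp with 64 measured CpGs. The second, called the Gnas region here, carries the category name Cancer and spans chr2:174297917-174298416, a length of 500 bp with 17 measured CpGs. The category names are used as the authors wrote them.

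The samples were embryonic stem cell lines of the Diversity Outbred mouse stock, which was bred from several inbred founder strains, so that lines can differ in genotype. The labels give a culture in serum, LIF and 2i for every line, 2i being inhibitors of MEK and GSK3 that keep embryonic stem cells naive. No untreated or differently cultured group was used here. DNA methylation was read by enzymatic methyl sequencing (EM-seq) after hybrid capture of a target panel. The stated purpose was to measure how far methylation varies among such lines. The tables held 85 columns of values, and the prefix of the line name was the only grouping: 28 lines had the prefix B1, 18 had B2, 20 had B3A and 19 had B3B. Among the B1 columns 2 have names that differ only in a final N, each with a title of its own, and they may hold the same line. They are counted as 2 lines, with 29.1 and 28.5% at the Nespas region and 36.4 and 33.6% at the Gnas region, and no call reported for either region changed without the second of them. The labels do not say what a prefix stands for, and it may mark a derivation, a batch or both, which cannot be told apart.

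Gnas is an imprinted gene with several alternative starts. Its best known product is the stimulatory G protein subunit Gs-alpha, which couples hormone receptors to adenylyl cyclase, and other starts give the extra-large XLas protein and the secretory protein Nesp55. Nespas is a noncoding RNA transcribed antisense to the Nesp start from the paternal chromosome. Methylation over the Nespas and XLas starts is laid down in the oocyte and is normally kept on the maternal copy through embryonic development. A region with full methylation on the maternal copy and none on the paternal copy would read 50% in these data.

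In the RefSeq gene table of GRCm38.p6, the assembly that mm10 names, Gnas runs from 174284320 to 174346744 and Nespas, listed there as Gnasas1, from 174281237 to 174295436. The Nespas region lies inside Gnas and reaches into the high-coordinate end of the Nespas interval by 411 bp, with 17 of its CpGs inside that interval and 47 beyond it. Gnas is on the + strand, so for an antisense RNA this end is the side of its start. The Gnas region lies inside Gnas alone, 2481 bp beyond the same end of the Nespas interval. A stretch of 1372 bp separates the 2 regions. Exons and introns were not assigned. A separate list of promoters held 4 Gnas starts, and 0 of them had a target region, so the levels below say nothing about methylation at those starts. The nearest of them lay 10706 bp before the Nespas region and 29333 bp beyond the Gnas region. The list does not name the product of a start, so whether it holds the XLas start was not checked.

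The deposited values were fractions and are given here as percent. Read counts were not used here, so the depth of a value is unknown and no interval for counting error is given. Both regions and all 81 CpGs had a value in all 85 lines. Over the 785 other target regions measured in 80% of columns or more, a line's mean level averaged 18.98% ± 10.1 (SD, n = 85) and ranged from 3.02 to 43.7%. This mean was 24.4% for the B1 lines, 20.7% for the B2 lines, 12.8% for the B3A lines and 15.8% for the B3B lines, so the lines already differed in overall level. Target regions at the naive pluripotency genes Zfp42, Nanog, Tbx3 and Dppa3 averaged between 0.191 and 6.26%. Of the 85 columns 44 matched a single library title, and the other 41 matched the labels by prefix. Among the latter 30 carried a final N that the titles lack (5 B1, 0 B2, 16 B3A and 9 B3B columns), and results that rest on these columns are also given without them.

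The Nespas region was methylated at 23.1% ± 13.7 (SD, n = 85). The lowest line read 0.466%, the median line 24.5% and the highest 51.7%. In 45 lines the level was under 25%, in 38 it lay between 25 and 50%, and in 2 it exceeded 50%. The highest lines lay close to 50%, and most lines lay well below it. The parental copies were not told apart, so a level near 50% does not show methylation on the maternal copy alone.

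The Gnas region was higher, at 31.7% ± 18.2 (SD, n = 85), with a lowest line of 1.46%, a median of 30.6% and a highest of 72.2%. It lay under 25% in 31 lines, between 25 and 50% in 38 and over 50% in 16. It exceeded 60% in 4 lines and 75% in 0 lines. More lines exceeded 50% here than at the Nespas region, and the range overlapped that of the Nespas region over most of its length.

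The states of the regions were nested at a cut of 25%. Both regions were under 25% in 31 lines and both were at 25% or more in 40. In 14 lines the Nespas region was under 25% while the Gnas region was not, and the reverse was seen in 0 lines. Both regions were under 5% in 6 lines, 4 of them B3A and 2 of them B3B. The Gnas region was under 5% in 7 lines. Among these a B3B line read 2.41% at the Gnas region and 5.10% at the Nespas region, so the states were not nested at 5%. Both were over 50% in 2 lines, 1 of them B1 and 1 of them B3B. The B1 line was also the highest of all 85 lines over the other target regions, with 51.7% at the Nespas region, 72.2% at the Gnas region and 43.7% elsewhere.

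**Figure D1:**
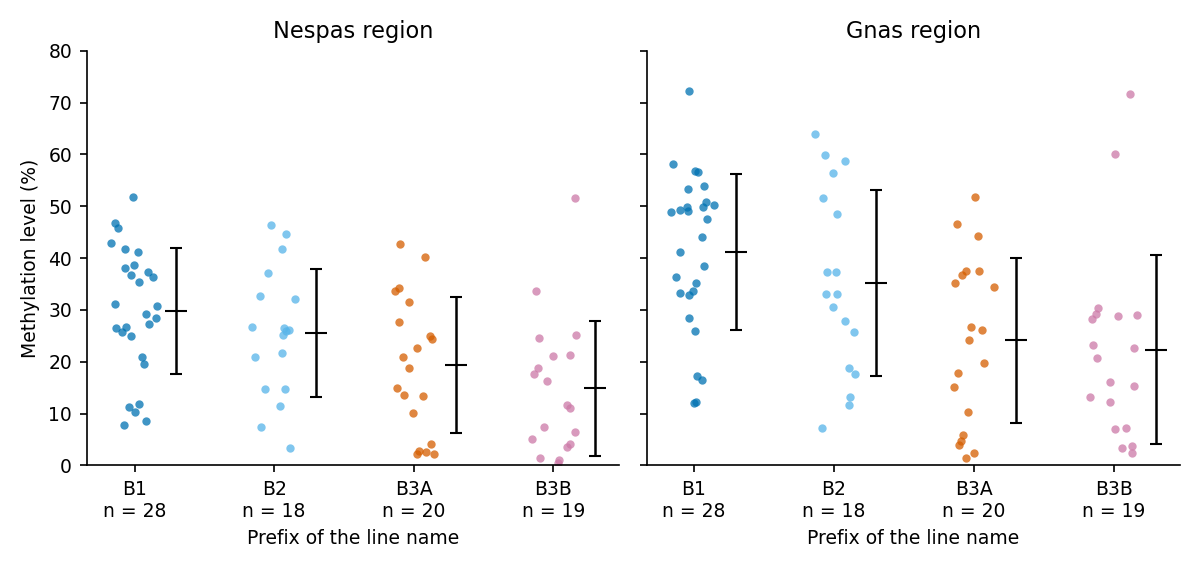
Methylation level in percent of the Nespas region (left) and the Gnas region (right) in each of 85 lines, 1 point per line, by prefix of the line name; bars give the mean ± SD of a prefix. Every prefix spans low and high lines, and the B1 means of 29.8% and 41.2% stand above the B3B means of 14.9% and 22.4%.

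Methylation of both regions differed between prefixes, with the highest means in B1 and the lowest in B3B. At the Nespas region the B1 lines ranged from 7.78 to 51.7% around a median of 29.9%, the B2 lines from 3.44 to 46.5% around 26.04%, the B3A lines from 2.22 to 42.7% around 19.8%, and the B3B lines from 0.466 to 51.6% around 11.6%. Their means were 29.8% ± 12.2 for B1, 25.5% ± 12.3 for B2, 19.4% ± 13.1 for B3A and 14.9% ± 13.1 for B3B (SD, n = 28, 18, 20 and 19). The prefixes overlapped along most of their ranges. The lowest B1 line was still above the lowest line of each of the other prefixes.

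At the Gnas region the B1 lines ranged from 12.1 to 72.2% around a median of 45.8%, the B2 lines from 7.19 to 64.03% around 33.01%, the B3A lines from 1.46 to 51.7% around 25.2%, and the B3B lines from 2.41 to 71.6% around 20.8%. The means were 41.2% ± 15.1, 35.1% ± 17.96, 24.1% ± 16 and 22.4% ± 18.2 in the same order. Here too B1 held the highest mean, and a single B3B line came within 1 percentage point of the highest B1 line. In the plot of levels by prefix this B3B line and another at 60.2% stand apart from the other B3B lines.

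The moderated F test of limma across the 787 regions with enough values gave an adjusted p of 0.000682 for the Nespas region and 0.000584 for the Gnas region (Benjamini-Hochberg over all 787). The test called 81.6% of all regions, so a call at both members is what most regions of the panel showed. The p-values measure only the spread between these lines.

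Between pairs of prefixes, B1 exceeded B3B by 14.9 percentage points ± 3.78 (SE) at the Nespas region, with an adjusted p of 0.000851 from the limma contrast, and by 18.9 ± 5.05 at the Gnas region, adjusted p = 0.00225. This contrast was called at 60.4% of all regions. B1 exceeded B3A by 10.4 points ± 3.72 at the Nespas region (limma adjusted p = 0.0213) and by 17.1 ± 4.57 at the Gnas region (0.00346), a contrast called at 80.8% of regions. With only the 44 columns that match 1 title, 18 of them B1 and 3 of them B3A, this contrast passed at neither region (limma adjusted p = 0.304 and 0.147). Without the final-N columns, which left 4 in B3A, it passed at both (limma adjusted p = 0.0461 and 0.0214). The share of all regions it called in that subset was not computed. B2 exceeded B3B by 10.7 points ± 4.17 at the Nespas region (limma adjusted p = 0.0144) and by 12.8 ± 5.94 at the Gnas region (0.0432). Only 10.8% of all regions were called between B2 and B3B, and both members of the cluster were among them. Without the columns with a final N, this contrast passed the threshold at neither region (limma adjusted p = 0.0537 and 0.0927).

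The remaining contrasts did not pass at 0.05. B2 exceeded B3A by 6.15 points ± 4.12 at the Nespas region and by 11.02 ± 5.54 at the Gnas region (limma adjusted p = 0.171 and 0.0599, 59.6% of regions called). Without the final-N columns the B2 against B3A contrast was called at the Gnas region, with a limma adjusted p of 0.0339. The 4 B3A columns then left averaged 13.9% at the Gnas region, and the 16 left out averaged 26.6%. The share of all regions called by this contrast in that subset was not computed. B1 and B2 differed by 4.23 points ± 3.71 at the Nespas region and 6.09 ± 5.10 at the Gnas region, where 2.29% of regions were called. B3A and B3B differed by 4.54 points ± 4.18 and 1.74 ± 5.49, where 1.65% were called. With all columns, an interval of 2 SE reaches to both sides of 0 for each of these contrasts. For B2 against B3A at the Gnas region it only just does so.

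The order of B3A and B3B at the cluster was the opposite of that over the panel. The mean of B3A lay above the mean of B3B at both members and at 18 of the 22 other imprinting regions, but at only 84 of all 787 regions. The median difference, B3A minus B3B, was -2.45 points over all 787 regions. It was 1.91 points over the 22 other imprinting regions. With the line's mean over the other regions as a covariate, B3A exceeded B3B at the Nespas region by 0.97 ± 0.26 on the log2 odds scale (limma adjusted p = 0.0423), a contrast called at 0.508% of regions. At the Gnas region the same difference was 0.53 ± 0.23 and did not pass (limma adjusted p = 0.259). The 4 regions called in that fit were the Nespas region, Grb10 and both regions at Nap1l5, so the call was not particular to the cluster. The difference was 0.967 at Grb10 (limma adjusted p = 0.0488) and 1.21 and 1.16 at Nap1l5 (0.0199 each). The order depended on the final-N columns, which make up 16 of the 20 B3A columns. Among columns without the final N, the Nespas region averaged 12.2% in B3A (n = 4) and 15.8% in B3B (n = 10), and the covariate contrast had a limma adjusted p of 0.810.

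The overall level of the lines also differed between prefixes, highest in B1 as at the cluster but lowest in B3A. With it as a covariate, the prefix difference no longer passed at the Nespas region (limma adjusted p = 0.0653) or the Gnas region (limma adjusted p = 0.330), and 3.43% of all regions were called. With each line's fractions centred on its mean instead, both regions passed (limma adjusted p = 0.0060 and 0.00559), as did 77.3% of all regions. In the covariate fit B1 then lay below B3A, with a log2 odds difference of -0.35 ± 0.26 at the Nespas region and -0.14 ± 0.23 at the Gnas region. Neither of these differences passed (limma adjusted p = 0.590 and 0.848).

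Line by line, the Gnas region lay above the Nespas region in 81 of 85 lines, by 8.58 percentage points ± 6.92 (SD, 95% interval of the mean 7.09 to 10.1). A two-sided sign-flip permutation test over lines gave p = 1e-05, the smallest that 100000 resamples can give, and 1.5e-05 after adjustment over the 3 paired differences computed. The largest gap was in a B2 line with 37.1% at the Nespas region and 64.03% at the Gnas region. A B3B line followed with 33.5 and 60.2%, and a B1 line with 20.96 and 47.5%. In 8 lines the gap was 20 points or more.

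The 4 lines with the opposite order all read under 15% at both regions, and the Nespas region exceeded the Gnas region in them by 0.807 to 2.69 points. The gap averaged 11.4 points ± 5.76 for B1, 9.58 ± 9.13 for B2, 4.70 ± 3.996 for B3A and 7.496 ± 6.84 for B3B. The Gnas region was the higher in 28 of 28, 17 of 18, 18 of 20 and 18 of 19 lines of these prefixes. A permutation test on F over lines found that these gaps differed between prefixes (adjusted p = 0.00867), a call that was lost without the final-N columns (permutation adjusted p = 0.194) or with only columns matching 1 title (0.291). Once the gap was regressed on the line's mean over the other regions, the prefix test of the residuals gave a permutation p of 0.807.

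**Figure D2:**
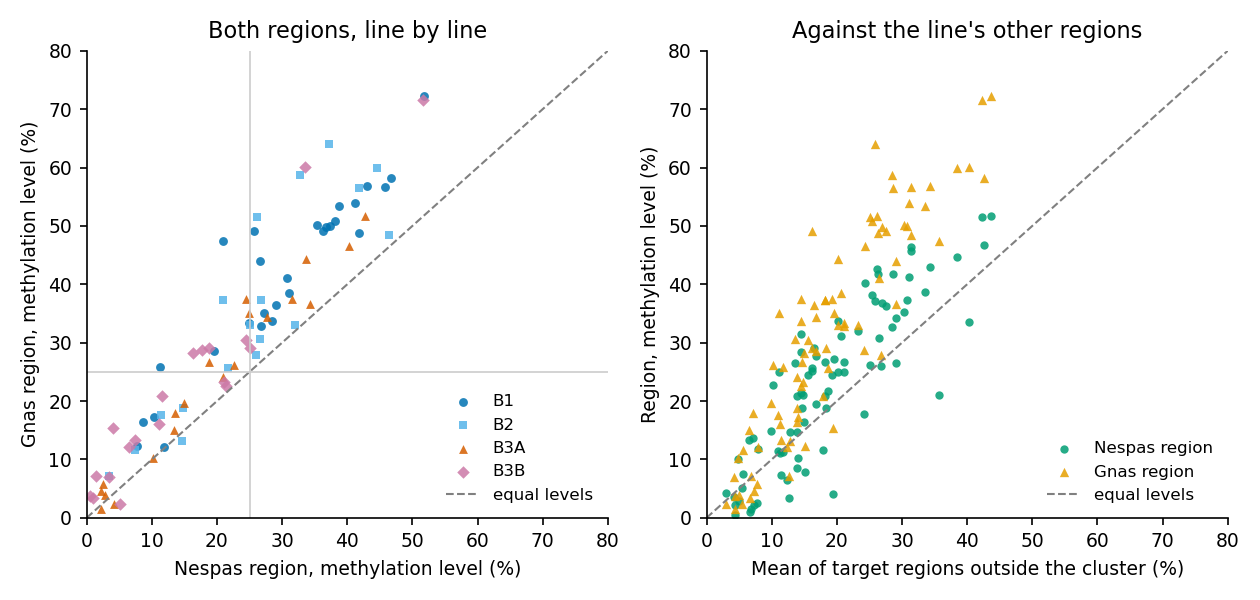
Left, methylation level of the Gnas region against the Nespas region in each of 85 lines, with symbols by prefix, grey lines at 25% and a dashed line of equal levels; 81 lines lie above the dashed line and the quadrant with a low Gnas and a high Nespas region is empty. Right, both regions against the line's mean over the 785 target regions outside the cluster, all in percent.

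The regions rose and fell together. Across 85 lines, Pearson's r between them was 0.945 and Spearman's rho 0.940 (permutation p = 1e-05 each, the smallest the test can give, and adjusted p = 1e-05 over the 4 correlations computed). Without the 2 lines farthest from the median Nespas level, r was 0.938. Within prefixes r was 0.932 for B1, 0.883 for B2, 0.982 for B3A and 0.956 for B3B. A straight line through all lines had a slope of 1.26 ± 0.048 (SE) and an intercept of 2.67 points ± 1.28, so 1 point at the Nespas region went with more than 1 point at the Gnas region.

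Both regions also followed the overall level of the line, which is shared by all regions of a library. Against the mean over those 785 regions, Pearson's r was 0.861 for the Nespas region and 0.904 for the Gnas region, and Spearman's rho was 0.858 and 0.897 (permutation p = 1e-05 for each). Without the 2 lines farthest from the median these r were 0.847 and 0.899. The slope was 1.18 ± 0.076 for the Nespas region and 1.64 ± 0.085 for the Gnas region. Within prefixes r ran from 0.816 to 0.901 for the Nespas region and from 0.849 to 0.954 for the Gnas region. After a regression of each region's log2 odds on the line's mean log2 odds elsewhere, the residuals of the regions still correlated at r = 0.823 and rho = 0.850 (permutation p = 1e-05). This r was 0.812 without the 2 farthest lines and was 0.834, 0.717, 0.924 and 0.734 within B1, B2, B3A and B3B. The B2 value fell to 0.533 without the 2 farthest B2 lines.

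The Nespas region lay at the level of the other imprinting regions of the same line. Their mean was 23.1% over 22 regions, and the paired difference averaged -0.0045 points ± 3.72 (SD, n = 85), with a 95% interval of the mean from -0.807 to 0.798. The Nespas region was the higher in 44 lines and the lower in 41 (sign-flip permutation p = 0.991). Its mean exceeded that of 14 of the 22 other imprinting regions.

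The Gnas region stood above most of the regions that share its category name. It exceeded the line's mean over the other 138 Cancer regions by 10.8 points ± 9.57 (SD), in 70 of 85 lines (sign-flip permutation adjusted p = 1.5e-05). The excess was 14.4 points for B1, 12.2 for B2, 10.3 for B3A and 4.74 for B3B. It differed between prefixes (permutation test, adjusted p = 0.00867), but the call was lost without the final-N columns (0.211), with only columns matching 1 title (0.333) and on log2 odds (0.052). The mean of the Gnas region exceeded that of 94 of the 138 other Cancer regions and of 21 of the 22 imprinting regions outside the cluster.

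Along the Nespas region the 64 CpGs had mean levels from 10.6 to 27.9% with a median of 23.3%, against a median of 5.48% over all 7917 CpGs. The first CpG, at 174295059, averaged 22.7% ± 15.8 (SD, n = 85) and the last, at 174296509, 23.2% ± 13.96. The highest mean was at 174296290, with 27.9% ± 16.6. Several stretches were lower than the rest. CpG 174295815 averaged 10.6% ± 11.3, read 0% in 16 lines and was under 25% in 76. It had both the lowest mean and the lowest SD of the region. The next CpG, 6 bp on at 174295821 and named after its values were seen, averaged 12.2% ± 12.3. CpG 174295314, also named after its values were seen, averaged 16.4% ± 12.9.

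The 17 CpGs inside the Nespas interval averaged 23.1% ± 13.8 and the 47 CpGs beyond its end 22.5% ± 13.6. The latter were higher in 37 of 85 lines, and the line means of the groups correlated at r = 0.947 across lines. At the boundary itself the level was lower on the outer side. The last 5 CpGs inside, from 174295381 to 174295403, had means of 22.2 to 25.99%, and the first 7 beyond it, from 174295440 to 174295494, 14.6 to 19.5%. Averaged per line, these 7 read 17.7% ± 13.6 and lay below the 5 in 73 of 85 lines. These CpGs were chosen after their values were seen, and no test was made.

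The 17 CpGs of the Gnas region averaged 24.1 to 41.03% with a median of 31.5%. CpG 174297939, the first, averaged 29.1% ± 17.3, and CpG 174298293, the last, 33.002% ± 19.7. The highest and most variable was 174298014, with 41.03% ± 22.6, over 50% in 27 lines and over 75% in 5, and a highest line of 88.7%. Its neighbour 4 bp before it, 174298010, averaged 26.9% ± 18.1, and the CpG before that, 174297999, 39.2% ± 21.4. The lowest mean was 24.1% ± 16.7 at 174298185 and the smallest SD 15.9 at 174298280, which averaged 24.4%. Of the 17 CpGs 10 exceeded a mean of 30% and 10 read over 75% in at least 1 line. Of the 64 CpGs of the Nespas region 0 did either.

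**Figure D3:**
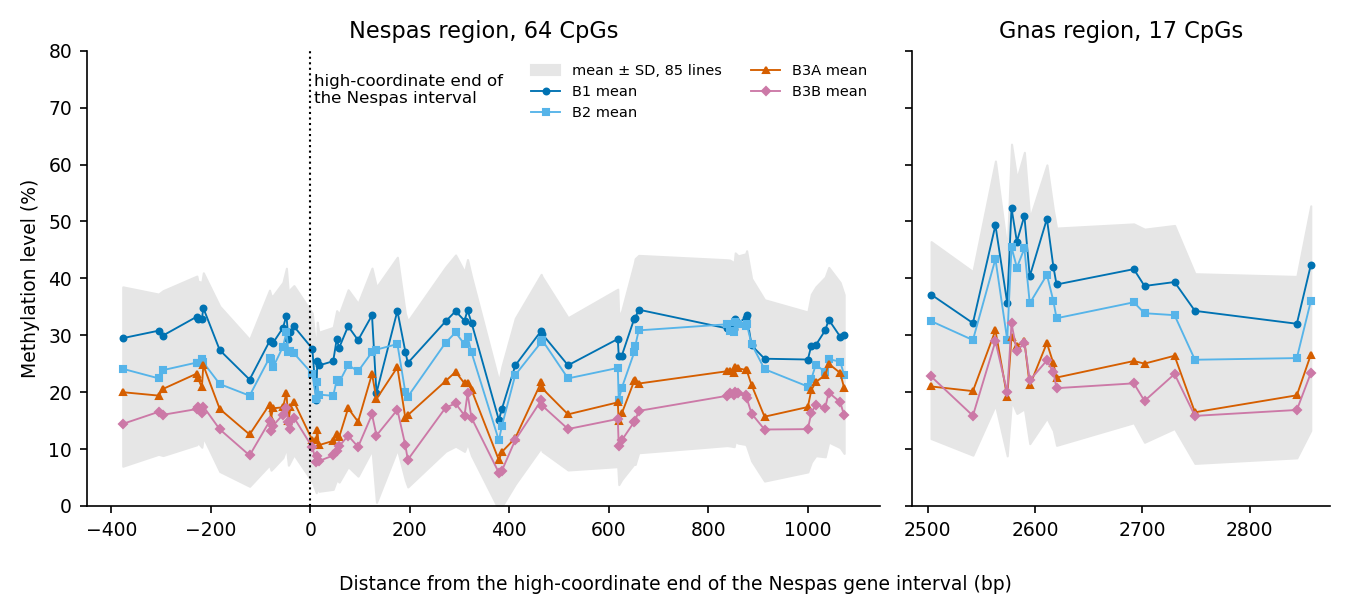
Mean methylation level in percent of each CpG by prefix, against its distance in bp from the high-coordinate end of the Nespas gene interval, for the Nespas region (left) and the Gnas region (right); grey gives the mean ± SD over 85 lines. The dip near 379 bp holds the CpGs averaging 10.6 and 12.2%, and the Gnas region peaks at the CpG averaging 41.03%.

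Most CpGs followed their region. The correlation of a CpG with the mean of the other CpGs of its region across 85 lines had a median of 0.893 in the Nespas region and 0.947 in the Gnas region, where it ran from 0.880 to 0.967. CpGs of a library share reads and depth, so these are descriptions. Within the Nespas region, pairs up to 20 bp apart had a median r of 0.958, pairs 20 to 100 bp apart 0.885, pairs 100 to 300 bp apart 0.796, pairs 300 to 1000 bp apart 0.785 and pairs 1000 to 1500 bp apart 0.764. Pairs in the Gnas region had medians of 0.941, 0.899 and 0.871 over the first 3 of these distances. Pairs with 1 CpG in each region, 1430 to 3234 bp apart, had a median r of 0.806. The similarity of CpGs thus fell over the first 300 bp and then changed little, even across the unmeasured stretch between the regions. CpGs of a line also share its general level, so an r near 0.8 is not particular to nearby CpGs. As whole regions, the Nespas region had an r of 0.945 with the Gnas region and 0.953 with the Grb10 region on chromosome 11. Pairs of CpGs from unlinked regions were not examined.

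**Figure D4:**
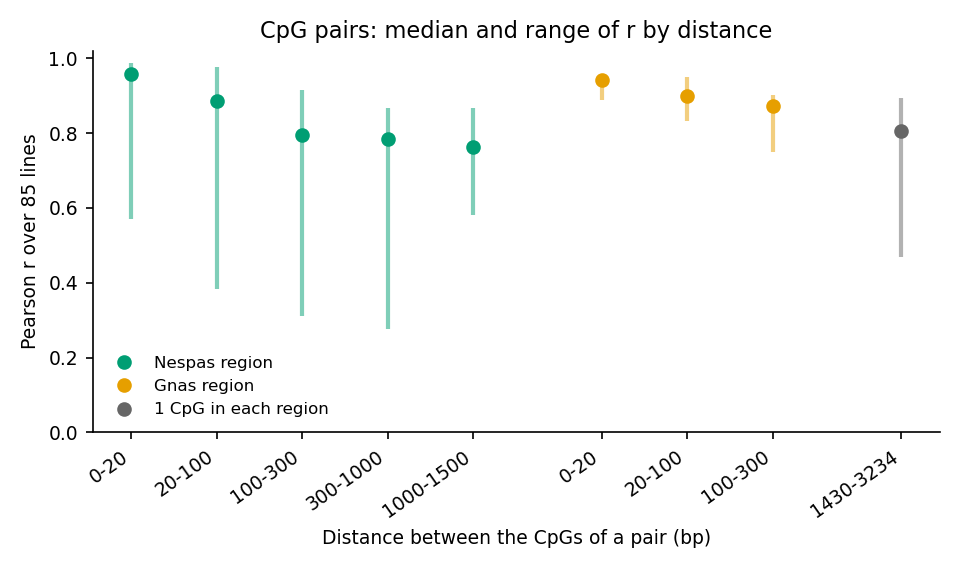
Pearson r over 85 lines for pairs of CpGs by their distance in bp, with a point at the median and a bar from the lowest to the highest pair. The medians fall from 0.958 to 0.796 over 300 bp in the Nespas region and stay near 0.8 beyond.

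A single CpG of the Nespas region departed from the others. CpG 174295569 correlated with the rest of its region at r = 0.494, and the next lowest value was 0.749. It was picked as the least like the rest after values were seen. It was the most variable CpG of the region, with 19.5% ± 18.9 (SD, n = 85), 0% in 19 lines and a highest line of 66.7%. In 37 lines the rest of the region averaged 25% or more, and this CpG read exactly 0% in 10 of them (7 B1, 1 B2 and 2 B3A lines). In those 10 lines the rest of the region averaged 25.8 to 46.4%. The CpG 9 bp before it, 174295560, averaged 39.6% ± 14.1 in the same 10 lines, and the next, 42 bp on at 174295611, 44.6% ± 14.1. The lines can differ in genotype, and whether they differ in sequence at CpG 174295569 was not tested. A difference in sequence and a difference in methylation cannot be told apart here.

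In the other 27 of the 37 lines CpG 174295569 read 2.33% or more, with a median of 38.1%. Only 1 other CpG of the Nespas region, 174295815, read 0% in any line whose other CpGs averaged 25% or more, and it did so in 2 lines. In the Gnas region 0 of 17 CpGs did so. CpG 174295569 was also 1 of 3 CpGs of the Nespas region with their highest fitted level in B2, where it averaged 27.5%, against 19.8% in B1, 18.8% in B3A and 12.4% in B3B. In the map of each CpG in each line it forms a column of dark cells among brighter ones.

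**Figure D5:**
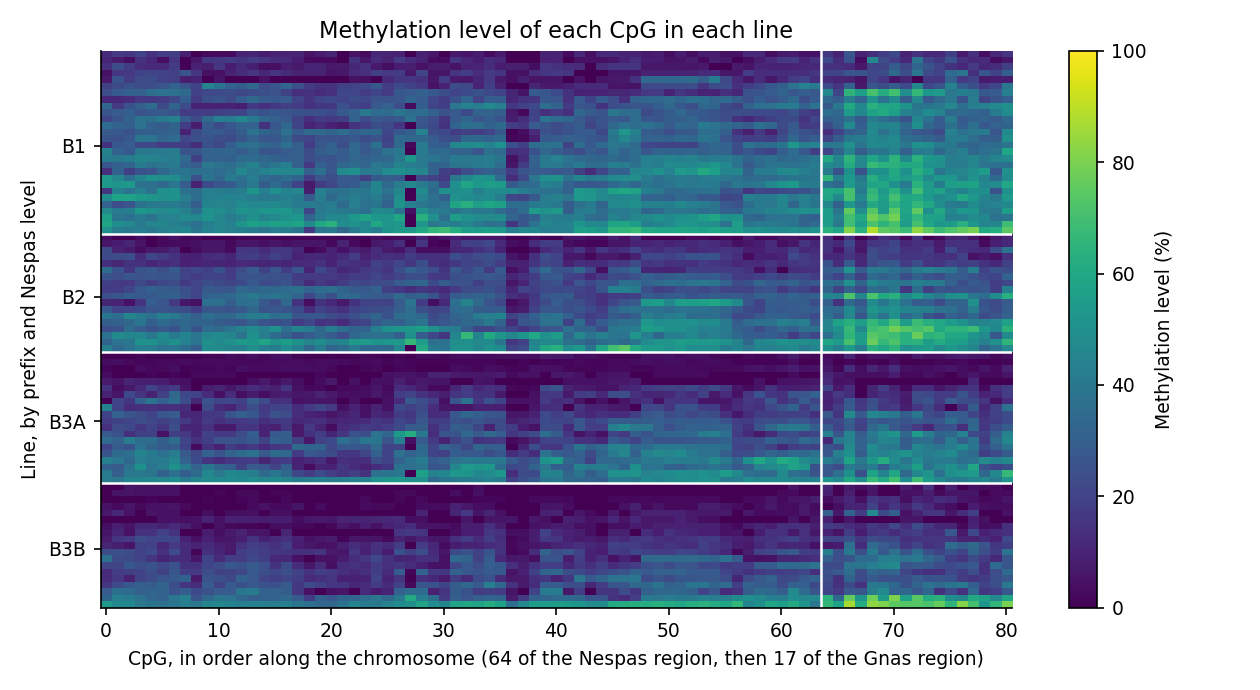
Methylation level in percent (colour) of each of 81 CpGs (columns, in order along the chromosome, a white line between the regions) in each of 85 lines (rows, by prefix and rising Nespas level). The dark cells within bright rows near column 27 are CpG 174295569, read as 0% in 10 lines whose other CpGs averaged 25% or more.

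At single CpGs the limma F test across all 7917 called 76 of the 81 CpGs of the cluster between prefixes, 59 of 64 in the Nespas region and 17 of 17 in the Gnas region, against 45.2% of all CpGs. Neighbouring CpGs share reads, so this count is not a count of separate findings. The 5 CpGs that did not pass were 174295569 (limma adjusted p = 0.146) and 4 neighbours from 174296273 to 174296290 (limma adjusted p from 0.0511 to 0.0756). That short run includes the CpG with the highest mean of the region.

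With all columns the fitted level was lowest in B3B at all 64 CpGs of the Nespas region. In the Gnas region it was lowest in B3B at 10 CpGs and in B3A at 7. Without the final-N columns the fitted B3A level exceeded the B3B level at only 16 of 64 and 0 of 17 CpGs. B1 against B3B was called at 61 of 64 CpGs of the Nespas region and 16 of 17 of the Gnas region (27.3% of all CpGs). B1 against B3A was called at 18 of 64 and 17 of 17 (36.6% of all CpGs). B2 against B3B was called at 30 of 64 and 2 of 17 (7.52% of all CpGs). Without the final-N columns the limma counts were 9 of 64 and 0 of 17 for B1 against B3B (2.83% of all CpGs), 3 of 64 and 4 of 17 for B1 against B3A (5.87%), and 3 of 64 and 0 of 17 for B2 against B3B (0.758%). At an unadjusted p under 0.05, the contrasts with 0 calls had 17 of 17 Gnas region CpGs for B1 against B3B and 11 of 17 for B2 against B3B. The share of all CpGs under that unadjusted threshold was not computed, so these counts cannot be set beside the adjusted shares. A test of the difference between regions in these counts was not run.

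The median difference of means between B1 and B3B was 14.7 points over the CpGs of the Nespas region and 18.6 over those of the Gnas region. It was 1.99 over all CpGs, whose median level was only 5.48%. Taken by region, the same median difference was 14.02 points over the 22 other imprinting regions and 7.43 over all 787 regions. A difference near that of the Nespas region was thus common among imprinting regions. Without the columns with a final N, 47 of the 81 CpGs were called between prefixes (21.1% of all CpGs), and with only the 44 columns that match 1 title, 9 were (6.91%). With the overall level of the line as a covariate, limma called 0 of the 81 CpGs (0.139% of all CpGs). At an unadjusted p under 0.05 that fit had 22 of 64 CpGs in the Nespas region and 1 of 17 in the Gnas region. No share of all CpGs was computed at that threshold, so the 22 cannot be set beside the 0.139%.

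The target regions most like each member in their pattern over the 85 lines were mostly other imprinted loci. By Pearson's r over lines, among 786 regions, the Nespas region was most like the imprinting regions at Grb10 (0.953), a growth factor receptor adaptor, at Zrsr1 and Commd1 (0.950), at Nap1l5 and Herc3 (0.948), at Plagl1 and Hymai (0.945) and at Nnat and Blcap (0.945). The Gnas region ranked 5 in that list.

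The Gnas region was most like the Nespas region (rank 1), followed by the regions at Nnat and Blcap (0.944), Zrsr1 and Commd1 (0.939), Mest (0.934), the cyclic nucleotide phosphodiesterase gene Pde11a (0.933) and Grb10 (0.930). Pde11a carried the category name Cancer, and the other 4 carried the name imprinting. The levels of the like regions were near that of the Nespas region: Grb10 averaged 21.3% ± 13.7, Zrsr1 20.2% ± 14.8 and Nnat 20.9% ± 13.8 (SD, n = 85). Pde11a was higher, at 38.4% ± 19.6. These r share the overall level of the line, and no test was made of them.

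As reference values, all 16 target regions at 14 imprinted genes listed as maternally methylated, among them Peg3, Snrpn and Igf2r, passed the limma F test between prefixes, which 81.6% of all regions passed. Their means ran from 19.1 to 56.9% with a median of 21.6%, and the median over all 787 regions was 15.7%. The 56.9% is a region at Peg10 with the category name Cancer, and the imprinting region at Peg10 averaged 21.4%. The highest mean among those named imprinting was 38.2%, at Peg13. The median r of the 16 regions with the Nespas region was 0.928. The 5 regions at H19 and Meg3, loci listed as paternally methylated, also passed, with means from 17.4 to 31.2% and a median r with the Nespas region of 0.878. With the overall level as a covariate 2 of the 16 passed, both at Nap1l5 and overlapping each other. The 5 regions at H19 and Meg3 had limma adjusted p-values from 0.193 to 0.543. In that fit 27 of 787 regions passed in all.

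Few other genes of the pathway were on the panel. Of 28 genes of Gs-alpha signalling other than Gnas, 2 had a target region, both with the category name aging_Young. Adcy6, an adenylyl cyclase, averaged 35.6% ± 19.2 and correlated with the Gnas region at r = 0.882. Pde4c, a cyclic AMP phosphodiesterase, averaged 2.64% ± 2.07. Both passed the limma F test between prefixes (adjusted p = 0.000265 and 0.00599), as did 81.6% of all regions, and neither passed with the overall level as a covariate (limma adjusted p = 0.291 and 0.312). Of 9 genes flanking the cluster 1 had a target region, Npepl1, a predicted aminopeptidase gene at chr2:174110851-174111350. It averaged 5.25% ± 4.70, with a limma adjusted p of 0.000206, so the intermediate levels of the cluster were not shared by this flanking region.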

How the data were processed

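The authors deposited methylation values as a fraction per CpG and as an average fraction per target region, with a coverage filter of 10 named in the titles of both deposited tables. Missing region values are entered as text. The tools were Bismark, Bowtie2 and Trim Galore 0.6.4 and the build was mm10, per the submitters' processing notes, with no role or setting named. Of 101 libraries in the labels, 16 carried the suffix WA. 16 of the 41 columns matched by prefix only fit both a plain and a WA title, and no source used here says how those columns were made from the libraries.

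A region was kept if at least 80% of columns had a value (787 regions). Values were fitted as log2((fraction + 0.01)/(1 - fraction + 0.01)) with limma 3.58.1 in R 4.3.3 over all kept regions or all CpGs, with Benjamini-Hochberg adjustment (contrasts over all 6 pairs) and a threshold of 0.05. Standard errors in percentage points come from the spread within each prefix. Paired differences and correlations used 100000 resamples in NumPy 2.4.6 and SciPy 1.17.1. Scripts were tested on simulated data. Alternatives were another offset, untransformed fractions, no filter, region values from the CpG table, subsets of columns, libraries centred on their mean and the library mean as a covariate.

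Named CpGs were the ends, the highest, the lowest, the most and the least variable of each region. The named like regions were the 5 with the highest r outside the cluster. Reference genes came from lists of imprinted, Gs-alpha signalling, flanking, pluripotency and differentiation genes. The members and lists were chosen with earlier results of these data known. Regions of the differentiation genes (9 regions, 7 genes) averaged 3.47 to 56.7%.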

Additional observations from a re-analysis of the deposited data

Results flagged for a closer look

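The gap between the Gnas and Nespas regions differed between the 4 prefixes (permutation test over lines, adjusted p = 0.00867), from 4.70 points in B3A to 11.4 points in B1. It was positive in 81 of 85 lines. The excess of the Gnas region over the other Cancer regions also differed between prefixes (permutation test, adjusted p = 0.00867), from 4.74 points in B3B to 14.4 points in B1. Both results were picked out because the same contrast gave unequal sizes in different groups of lines. The overall level of the line also differed between prefixes, from 12.8% in B3A to 24.4% in B1. Once the gap was regressed on that level, the prefix test gave a permutation p of 0.807. Both calls were lost without the final-N columns (permutation adjusted p = 0.194 and 0.211) and with only columns matching 1 title (0.291 and 0.333). The excess over Cancer regions also did not pass on log2 odds (0.052).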

How the results depend on the processing

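Of 128 alternative values computed, 96 were classed as the same as the main value, 28 as weaker, 2 as stronger and 2 as reversed. The values include CpG counts, which have no p-value of their own. A count of 65 called CpGs beside 76 was classed as the same. The paired differences that passed and the correlations kept direction and call under every alternative run. The Nespas difference from other imprinting regions, which did not pass, was -0.0045 points, 0.070 points with CpG-table values and 0.041 on log2 odds. Leaving out the second of the like-named B1 columns (chosen after seeing the data) changed no call of the regions, gaps or correlations and gave 75 called CpGs. Adjusted p-values below are from limma unless said otherwise. With the library mean as a covariate, the prefix difference gave 0.0653 (Nespas) and 0.330 (Gnas). Combined, after the data were seen, with leaving out the final-N columns, CpG-table values or an offset of 0.05, it gave 0.719, 0.0775 and 0.0515 (Nespas) and 0.841, 0.409 and 0.250 (Gnas). In the covariate fit B1 against B3A reversed (0.590 and 0.848), B1 against B3B gave 0.233 and 0.437, B2 against B3B 0.268 and 0.552, and B3A against B3B at the Nespas region passed (0.0423). That call was lost without final-N columns (0.810) and with CpG-table values (0.0544). Without final-N columns B2 against B3B gave 0.0537 and 0.0927, and B2 against B3A passed at the Gnas region (0.0339). With columns matching 1 title, B1 against B3A gave 0.304 and 0.147 and B2 against B3B 0.0747 and 0.0927. The CpG count of 76 became 47, 9 and 0 without final-N columns, with 1-title columns and with the covariate. In permutation tests added after the data were seen, the prefix difference of the Gnas-Nespas gap gave adjusted p = 0.194 and 0.291 in the same column subsets. That of the Gnas excess over Cancer regions gave 0.211, 0.333 and, on log2 odds, 0.052. Smaller subsets hold fewer lines; otherwise the cause was not tested. Lines could not be paired between prefixes because replicate numbers are only accession order and line names are not shared between prefixes. Depth per value is unknown.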
